A study of Drosophila melanogaster with 6 samples.

Results

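The EGF receptor and ERK pathway of the larval brain was followed here through 10 genes of Drosophila melanogaster: spi, rho, S, aos, Egfr, Ras85D, Raf, Dsor1, rl and pnt. They were taken by name, and every listed transcript of each was included. The 10 genes have 28 transcripts in the deposited matrix, out of 17137 gene names and 36294 transcripts in all, and 26 of the 28 were above 0 in at least 1 pool. All animals were wild-type Canton-S larvae of the third instar, with no transgene or mutation. Libraries of poly-A RNA came from 3 pools of brains of larvae raised on food with 5% alcohol, topped up each day with dilute alcohol until the third instar (alcohol pools), and from 3 pools of brains of larvae raised on food mixed with water, which was not topped up (control pools). Each pool held about 30 brains dissected from frozen larvae 6 days after egg-laying, so a value is an average over many animals, and no source says whether the pools came from separate bottles. P-values therefore measure the spread between these pools. The question is whether transcripts of the pathway differ between brains that developed with and without alcohol.

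The pathway starts with Spitz, a ligand of the TGF-alpha type that is made as an inactive membrane protein. The cargo receptor Star carries it out of the endoplasmic reticulum, and the intramembrane protease Rhomboid cuts it free. Secreted Spitz activates the EGF receptor, which signals through Ras and the kinases Raf, MEK and ERK to ETS-family transcription factors, while Argos is a secreted decoy that binds Spitz and is itself induced by the pathway. In the larval brain the pathway is known for its part in the neuroepithelium of the optic lobe and in the lamina, where photoreceptor axons deliver Spitz, and in adult flies for effects on sensitivity to alcohol. Much of its regulation acts on protein cleavage and phosphorylation, which RNA levels do not show.

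Values are FPKM, fragments scaled for the length of the transcript and the mapped fragments of the pool, which can be compared between genes. The aligned bases behind them were 2719 to 4028 megabases in alcohol pools and 3257 to 4244 megabases in control pools. Markers of the brain were present, with summed levels of 5 neuronal genes of 265 to 453 FPKM in alcohol pools and 257 to 405 FPKM in control pools, of 5 glial genes of 228 to 231 and 179 to 235 FPKM, and of 5 neuroblast genes of 72.1 to 89.8 and 76.7 to 97.8 FPKM, and of the 5, 4 and 3 of these markers that were tested 0 were differentially expressed. RNA of other tissues was present as well. The summed level of 7 eye-antennal disc genes, of which 2 were tested and 0 called, was 32.8 to 56.1 FPKM in alcohol pools and 36.4 to 47.6 FPKM in control pools. For 5 genes of salivary gland the sum was 21639 to 31748 FPKM against 10280 to 41492 FPKM, with ng1 and ng3 called upregulated, and 5 of fat body to 546 to 2819 against 1847 to 5156 FPKM, with Fbp1 called downregulated. Among 5 muscle genes all were called upregulated although the groups overlapped (82.1 to 326 against 47.9 to 415 FPKM). The means were 34.7 against 31.2 FPKM for up and 36.8 against 35.0 FPKM for wupA. They were 14.2 against 6.32 FPKM for Mhc, 53.9 against 32.1 FPKM for Mlc2 and 95.9 against 68.9 FPKM for Act57B. These calls came from a fit with a library-size covariate, and by the means alone only Mhc showed a rise of more than 2-fold. The 5 hemocyte genes, of which 4 were tested and 0 called, summed to 34.1 to 209 against 25.8 to 42.6 FPKM. The upper end came from Nplp2, with 184 FPKM in alcohol pool 3 and 4.78 to 20.8 FPKM in the other pools. No defining marker of these tissues was at 0 in all pools, and the part of such RNA in the values of the pathway genes was not tested. Fewer cells that express a gene and less RNA per cell cannot be told apart in pooled brains.

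All 10 genes were expressed, over a range that put the ligand and the small GTPase at the top and the ligand's decoy at the bottom. Over the 6 pools spi had the highest level, at 155 ± 13.4 FPKM (SD, n = 6), above 97.2% of the genes with any expression. Ras85D followed at 143 ± 15.2 FPKM and rl at 81.6 ± 14.04 FPKM. Next came Dsor1 at 35.3 ± 3.53, Egfr at 28.6 ± 6.59, S at 20.4 ± 1.61 and Raf at 19.1 ± 2.22 FPKM. The lowest levels belonged to pnt at 13.9 ± 0.941, rho at 13.4 ± 1.55 and aos at 12.1 ± 1.13 FPKM, and aos was still above 62.1% of expressed genes. Among neighbours in this order, the ranges over the 6 pools were separate between Ras85D and rl, between rl and Dsor1, and between Raf and pnt. The ranges overlapped for the other pairs of neighbours, although Egfr was above S within each of the 6 pools. Thus the 3 kinase genes formed a rising series along the cascade, with Raf below Dsor1 and Dsor1 below rl in every pool.

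**Figure D1:**
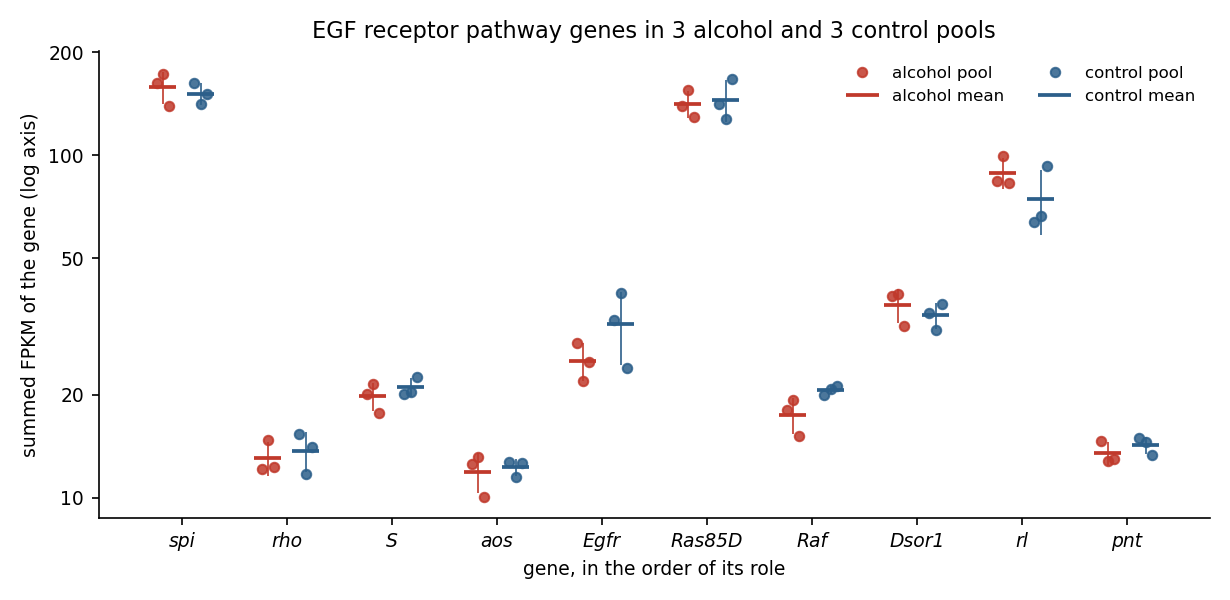
Summed FPKM of each of the 10 genes (log axis) in the alcohol pools, drawn on the left, and in the control pools, drawn on the right. Points are pools, horizontal bars are means and vertical lines are 1 SD (n = 3 pools per group). Only for Raf do the 3 alcohol pools, at 15.2 to 19.3 FPKM, all lie below the 3 control pools, at 20.0 to 21.2 FPKM.

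On the level of whole genes, alcohol was accompanied by no called change in the pathway. A gene was called differentially expressed, as a transcript was, where limma's moderated test gave more than a 2-fold change and p, before adjustment, below 0.05, fitted with Ballgown's library-size covariate, on log2(FPKM + 1). Of the 10 genes 9 passed the filter on variance and were tested, and 0 of these 9 were called, against 1.36% of all 8247 genes tested. At an unadjusted p-value under 0.05 there were also 0 of the 9 with limma, against 3.42% of all genes tested, and 0 with the ordinary F-test, against 4.05%. The log2 fold change was above 0 for 3 genes and below 0 for 6, with a median of -0.049, against -0.033 over all genes tested. The 95% confidence intervals of all 9 lay within a 2-fold change in either direction, as did those of 82.6% of all genes tested, and without the filter this held for 10 of 10. The median coefficient of variation over the 6 pools was 10.6% for the 9 genes, against 14.6% for all genes tested, with Egfr at 23.0% and rl at 17.2%. Genes of low level pass the filter on variance only with a large coefficient, so the 2 medians are not matched for level.

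**Figure D2:**
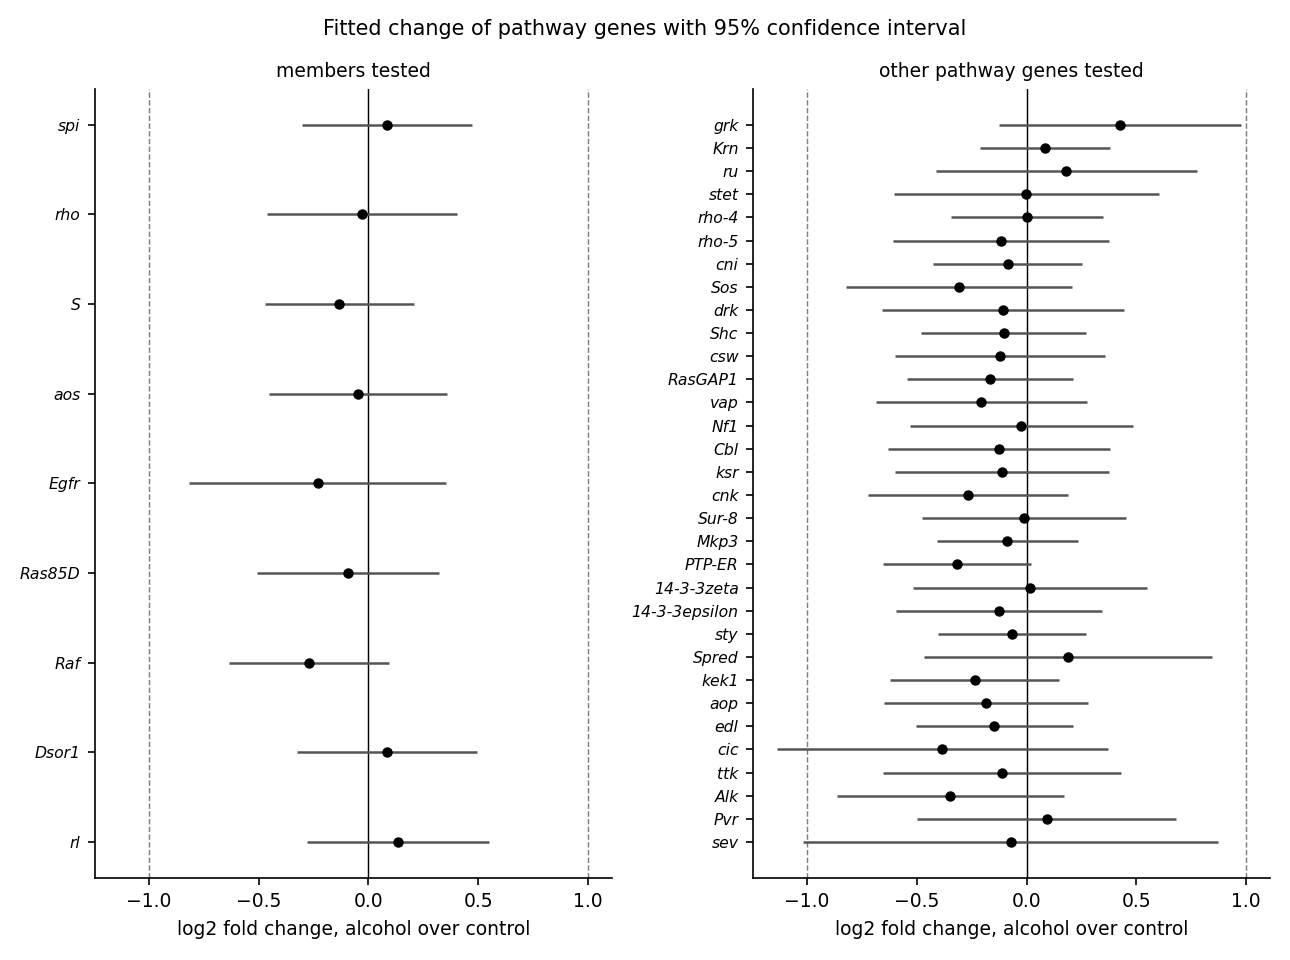
Fitted log2 fold change of alcohol over control on the log2(FPKM + 1) scale (points) with its 95% confidence interval (lines), for the 9 members tested (left) and the 32 other pathway genes tested (right). Dashed lines mark a 2-fold change, and the intervals of all 9 members stay between them.

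Levels of the ligand overlapped between the groups. The gene spi, on the minus strand of chromosome 2L (dm6, 19567900 to 19577315), had 163, 172 and 139 FPKM in alcohol pools, against 163, 141 and 151 FPKM in control pools. The groups overlapped, and the log2 fold change was 0.084 with a 95% confidence interval of -0.30 to 0.47 (limma adjusted p = 0.999). Its 5 transcripts encode the same protein of 234 residues and differ only in their start and 5′ exons. They start at 3 places, of which the one farthest upstream, at 19577315, is shared by spi-RA and spi-RF.

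Among the transcripts of spi, spi-RA was the main one, with 123, 69.4 and 75.1 FPKM in alcohol pools, against 110, 81.8 and 71.1 FPKM in control pools. The second, spi-RF, which starts at the same base and has 1 exon fewer, had 27.3, 64.7 and 27.5 FPKM, against 32.9, 43.1 and 50.9 FPKM. In each group the pool with the most spi-RA had the least spi-RF, and neither transcript has a base of its own that no other transcript of the gene covers. Together they made up 92.4%, 77.9% and 74.0% of the gene's FPKM in alcohol pools and 87.8%, 88.8% and 80.9% in control pools. From the downstream start at 19572610, spi-RB had 8.13, 33.3 and 9.70 FPKM in alcohol pools, against 15.7, 11.3 and 25.3 FPKM in control pools. The smallest steady transcript, spi-RE from the same start, had 4.29, 4.76 and 6.44 FPKM in alcohol pools, against 4.15, 4.20 and 3.50 FPKM in control pools. For spi-RE the groups did not overlap, and the log2 fold change of 0.28 ± 0.285 (SE) was not called (limma adjusted p = 0.999). The intermediate start at 19575587 was used by spi-RG alone, which has 53 bases of its own. The level of spi-RG was 20.0 FPKM in alcohol pool 3 and 0.0077 to 0.218 FPKM in the other 5 pools. This 1 pool gave the start 14.4% of the gene's FPKM there, and the log2 fold change of 0.49 ± 1.64 (SE) was smaller than its standard error. The difference in the share of this start was 4.72 percentage points, and -0.076 without that pool.

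Both genes that act on the ligand precursor were expressed at levels that did not separate the groups. On chromosome 3L (1463811 to 1468944), rho had 12.1, 14.8 and 12.2 FPKM in alcohol pools, against 15.4, 11.7 and 14.02 FPKM in control pools, with a log2 fold change of -0.030 (95% confidence interval -0.46 to 0.40). Its transcripts share their start and coding sequence of 355 residues and differ at the 3′ end, where rho-RB runs 469 bases farther. The shorter rho-RA had 7.10, 6.80 and 7.30 FPKM in alcohol pools, all below the 11.3, 8.16 and 7.86 FPKM of the control pools. The change of rho-RA, -0.095 ± 0.231 (SE) on the log2 scale with the covariate and -0.31 without it, was not called. The longer rho-RB had 4.99, 7.96 and 4.95 FPKM in alcohol pools, against 4.08, 3.56 and 6.15 FPKM in control pools. As a share of the gene this was 41.3%, 53.9% and 40.4%, against 26.5%, 30.4% and 43.9%, a difference of 11.6 percentage points with overlapping groups (two-sided exact permutation test, p = 0.3) that was 7.23 without alcohol pool 2 and 16.7 without control pool 3.

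For S, which encodes Star, on chromosome 2L (1049674 to 1077815), 20.1, 21.4 and 17.7 FPKM were found in alcohol pools, against 20.1, 20.4 and 22.5 FPKM in control pools. The log2 fold change was -0.13 (95% confidence interval -0.47 to 0.21). The whole signal was on S-RB, while S-RA, which has no base of its own, is listed at 0 in all 6 pools. The decoy gene aos, on chromosome 3L (16470386 to 16483650) with 1 transcript, had 12.5, 13.1 and 10.1 FPKM in alcohol pools, against 12.7, 11.5 and 12.7 FPKM in control pools. Its log2 fold change was -0.049 (95% confidence interval -0.45 to 0.36), so a change of the size called here lies outside the interval for this target of the pathway.

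The receptor gene was the most variable of the 10. On chromosome 2R (21522420 to 21559977), Egfr had 28.4, 22.0 and 24.9 FPKM in alcohol pools, against 33.0, 39.5 and 24.0 FPKM in control pools, a coefficient of variation of 23.0%. Control pools 1 and 2 were above all alcohol pools, and control pool 3 was below 2 of them. The log2 fold change was -0.23 ± 0.229 (SE; 95% confidence interval -0.82 to 0.35; limma adjusted p = 0.999). This value depended on control pool 2, without which it was 0.030, and on control pool 3, without which it was -0.58, and it was called in neither case.

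Both transcripts of Egfr start at their own first exon and encode receptors that differ at the N-terminal end. The first, Egfr-RA, encodes 1377 residues and had 11.3, 8.70 and 6.75 FPKM in alcohol pools, against 12.9, 12.1 and 11.0 FPKM in control pools. The groups of Egfr-RA overlapped only through the highest alcohol and the lowest control pool, and its log2 fold change was -0.19 ± 0.278 (SE). The second, Egfr-RB, which starts farther downstream and encodes 1426 residues, had 17.1, 13.3 and 18.1 FPKM in alcohol pools, against 20.1, 27.4 and 12.9 FPKM in control pools, and its log2 fold change was -0.091 ± 0.425 (SE). The downstream start gave 60.1%, 60.4% and 72.9% of the receptor's FPKM in alcohol pools and 61.0%, 69.5% and 54.0% in control pools. In all 6 pools it was the larger of the 2 starts, and its share did not separate the groups (two-sided exact permutation test, p = 0.7).

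Ras85D, the Ras of the pathway, was abundant and steady. On chromosome 3R (9510561 to 9513067), its single transcript had 139, 155 and 129 FPKM in alcohol pools, against 141, 128 and 167 FPKM in control pools. The highest and the lowest value both came from control pools, and the log2 fold change of the gene was -0.093 (95% confidence interval -0.51 to 0.32).

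Raf, the first kinase of the cascade, was the only gene of the 10 whose groups did not overlap. On chromosome X (2295466 to 2343870), it had 18.0, 19.3 and 15.2 FPKM in alcohol pools, against 20.0, 20.8 and 21.2 FPKM in control pools. The means were 17.5 ± 2.095 FPKM and 20.6 ± 0.598 FPKM (SD, n = 3 each), a ratio of 0.846. The log2 fold change was -0.27 ± 0.142 (SE; 95% confidence interval -0.63 to 0.092; limma adjusted p = 0.999), and it was not called. On the FPKM sums the exact permutation test gave its smallest possible two-sided p of 0.1. Separate groups were found for 1 of the 9 members tested, against 6.21% of all genes tested. Over the alternatives tried, the change of Raf lay between -0.34 and -0.17.

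The transcripts of Raf differ in their start and encode the same kinase of 739 residues. Raf-RA had 17.5, 18.6 and 10.1 FPKM in alcohol pools, against 19.5, 20.1 and 20.5 FPKM in control pools. Raf-RE, from a start 5′ of it and with 1000 bases of its own, had 0.503, 0.649 and 5.08 FPKM in alcohol pools, against 0.514, 0.674 and 0.675 FPKM in control pools. Alcohol pool 3 alone was high for Raf-RE and low for Raf-RA. In that pool the upstream start had 33.5% of the gene's FPKM, while the other 5 pools had 2.57% to 3.37%, and the difference between the groups of 10.2 percentage points was 0.087 without that pool. This is the same pool in which spi-RG was high.

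MEK is encoded by Dsor1, on chromosome X (9247342 to 9250037), which had 38.7, 39.2 and 31.7 FPKM in alcohol pools, against 34.5, 30.9 and 36.7 FPKM in control pools. Its log2 fold change was 0.083 (95% confidence interval -0.33 to 0.49). The longer transcript Dsor1-RA, for a protein of 396 residues, had 28.6 to 34.5 FPKM in alcohol pools and 27.8 to 33.0 FPKM in control pools. Dsor1-RB, for 393 residues, had 3.01 to 4.98 FPKM in alcohol pools and 2.83 to 3.73 FPKM in control pools, and its variance was too low for the test. The share of Dsor1-RA was the steadiest of the shares between alternative starts, at 89.1%, 87.3% and 90.5% in alcohol pools and 91.8%, 90.0% and 89.9% in control pools.

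ERK is encoded by rl, in the proximal part of chromosome 2R (1071462 to 1125927). The gene had 84.0, 99.2 and 83.2 FPKM in alcohol pools, against 64.0, 66.4 and 92.8 FPKM in control pools. Control pools 1 and 2 were below all alcohol pools and control pool 3 was among them. The mean was 1.19 times as high in alcohol pools, and the log2 fold change was 0.13 ± 0.162 (SE; 95% confidence interval -0.28 to 0.55; limma adjusted p = 0.999).

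Below the gene level, the division of rl changed between pools, although it was similar in alcohol pools 2 and 3 and control pool 3. Its 7 transcripts include 4 that encode a protein of 376 residues, rl-RC, rl-RD, rl-RE and rl-RI, whose last coding exon is another one in rl-RI, and 3 that encode shorter ones, rl-RA with 190, rl-RH with 266 and rl-RG with 331 residues. The transcript rl-RI had 0, 48.1 and 47.1 FPKM in alcohol pools, against 0, 0.576 and 45.9 FPKM in control pools. It was thus either near 0 or near 47 FPKM, and both states occurred in both groups. The transcript rl-RD had 35.2, 1.06 and 1.53 FPKM in alcohol pools, against 2.56, 15.1 and 3.24 FPKM in control pools, and its 2 highest values came from pools in which rl-RI was at or near 0, although control pool 1 was low for both. Neither rl-RI nor rl-RD has a base of its own. The remaining transcript of this length, rl-RE, had 2.72 to 8.04 FPKM in alcohol pools and 4.98 to 10.3 FPKM in control pools, and rl-RC is listed at 0 in all pools.

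The shorter forms varied less than rl-RI and rl-RD. The 3 values of rl-RA, which has 709 bases of its own, were 14.3, 20.4 and 15.2 FPKM in alcohol pools, against 18.5, 13.0 and 15.8 FPKM in control pools. The transcript rl-RH, with 3253 bases of its own, had 11.0 to 21.7 FPKM in alcohol pools and 16.0 to 18.9 FPKM in control pools, and rl-RG had 4.69 to 11.1 and 5.90 to 19.1 FPKM. Transcripts for a protein of 376 residues, rl-RI with its own coding sequence included, together made up 51.5%, 52.3% and 61.7% of the gene in alcohol pools, against 11.8%, 39.0% and 59.4% in control pools. Their share overlapped between the groups (difference 18.5 percentage points, two-sided exact permutation test, p = 0.3), and the lowest value came from control pool 1. Without that pool the difference was 5.99 percentage points, and without control pool 3 it was 29.8. The 6 fitted changes of rl transcripts ran from -1.62 to 0.37 on the log2 scale, and the ends of this range were rl-RI and rl-RD, with standard errors of 1.92 and 1.76. Both changed sign with the fit, since rl-RI, whose mean was higher in alcohol pools (31.7 against 15.5 FPKM), had a change of 1.67 and rl-RD of -0.12 without the covariate.

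**Figure D3:**
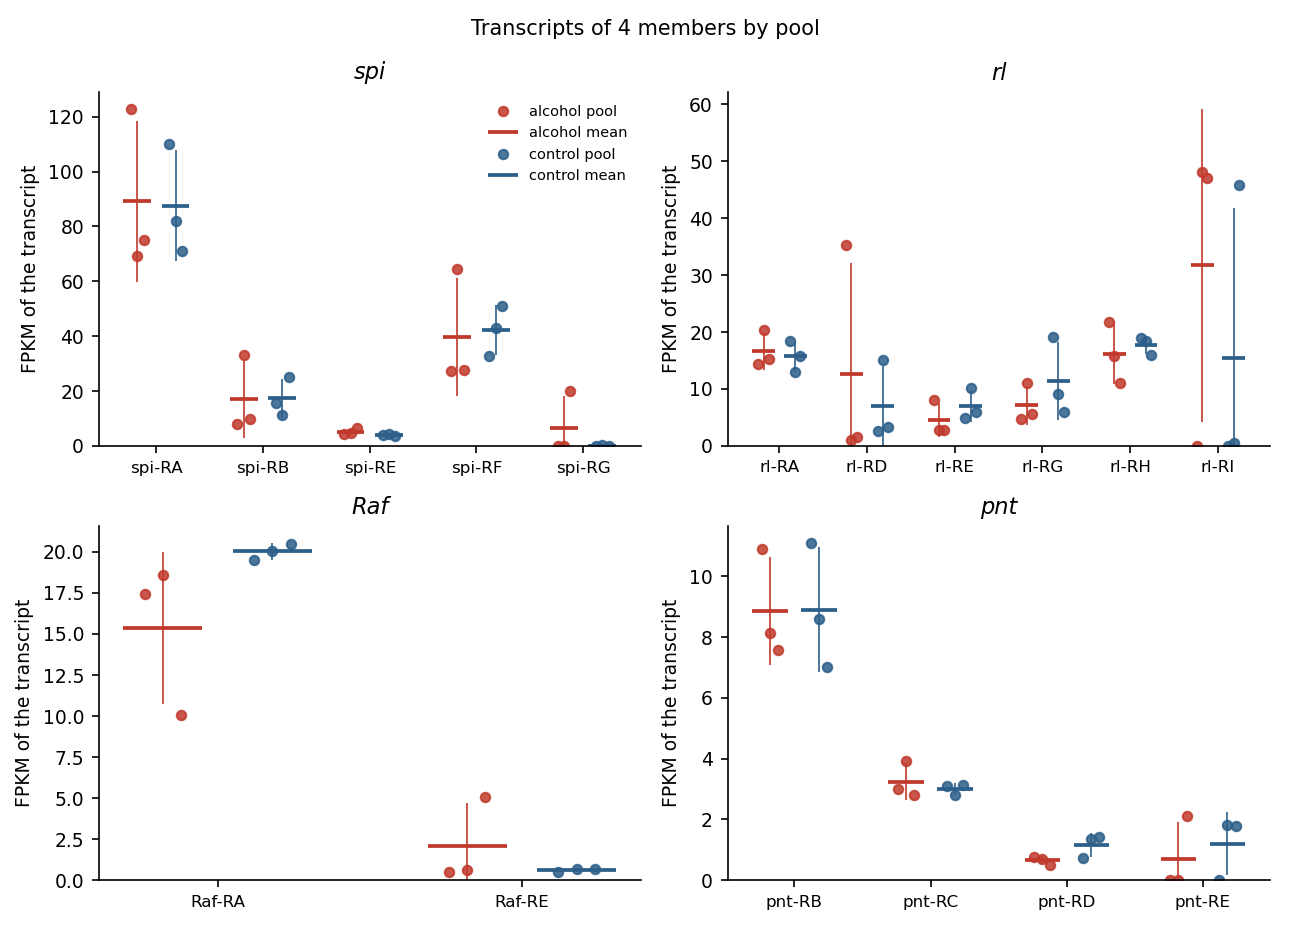
FPKM of each transcript above 0 of spi, rl, Raf and pnt, with alcohol pools on the left and control pools on the right of each pair. Points are pools, bars are means and lines are 1 SD, cut off at 0 (n = 3 pools per group). Single pools stand far from the rest for spi-RG (20.0 FPKM in alcohol pool 3) and Raf-RE (5.08 FPKM in the same pool), and rl-RI is near 0 in 3 pools and near 47 FPKM in 3.

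The ETS factor at the end of the cascade, pnt, had the steadiest level of all 10. On chromosome 3R (23290231 to 23346167), it had 14.7, 12.8 and 13.0 FPKM in alcohol pools, against 14.9, 14.5 and 13.3 FPKM in control pools. Its coefficient of variation over the 6 pools was 6.78%, and its variance did not exceed 1, so that it was left out of the test. Fitted without this filter, its log2 fold change was -0.044 (95% confidence interval -0.24 to 0.15).

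Transcripts of pnt start at 3 places and encode 4 proteins. The main transcript, pnt-RB, encodes the P2 form of 718 residues, which ERK phosphorylates, and had 10.9, 8.14 and 7.57 FPKM in alcohol pools, against 11.1, 8.59 and 7.02 FPKM in control pools. Its plain difference of log2 means was 0.00055, and with the covariate its log2 fold change was 0.35 ± 0.226 (SE). From the downstream start of the P1 form, which is active without phosphorylation, pnt-RC (623 residues) had 2.80 to 3.92 FPKM in alcohol pools and 2.79 to 3.13 FPKM in control pools. The pnt-RD transcript from the intermediate start had 0.756, 0.699 and 0.511 FPKM in alcohol pools, against 0.720, 1.36 and 1.40 FPKM in control pools. The variance of pnt-RC and pnt-RD was too low for the test.

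The only called transcript of the pathway was pnt-RE, a P1-type form of 625 residues with a longer 3′ end. It is listed at 0, 0 and 2.12 FPKM in alcohol pools, against 0, 1.81 and 1.77 FPKM in control pools. The groups overlapped, and the highest value came from an alcohol pool. Its fitted log2 fold change was -1.45 ± 0.533 (SE; limma adjusted p = 0.999, with the unadjusted value just inside the threshold), whereas the plain difference of log2 means was -0.44. It was called in 2 of 15 alternatives, with a pseudocount of 0.1 and without alcohol pool 3, and not without the covariate. Only 6 bases of pnt-RE are its own. The P1 start as a whole, pnt-RC and pnt-RE together, had 20.6%, 30.7% and 37.8% of the gene in alcohol pools and 20.7%, 31.6% and 36.8% in control pools, with group means of 29.7% each.

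Across all transcripts of the 10 genes, 23 of 28 passed the filter on variance and 1 was called, against 3.85% of all 14645 transcripts tested. The groups did not overlap for 3 of the 23, spi-RE, rho-RA and Raf-RA, against 7.72% of all transcripts tested. Only 9 of the 23 confidence intervals lay within a 2-fold change (30.9% of all transcripts tested), so for most single transcripts these pools do not exclude changes of the size called here. In genes with several transcripts, 20 of the 23 transcripts above 0 varied more between pools than the sum of their gene, and 8 had a coefficient of variation above 50%. The median coefficient was 25.5% for the 11 without a base of their own and 29.7% for the 12 with such bases. In the test of transcript usage, limma's diffSplice, 0 of 6 member genes with at least 2 tested transcripts passed an adjusted p-value of 0.05, against 1.05% of 3630 genes, and 1 of 6 had an unadjusted p-value under 0.05, against 11.5%. This was pnt, through pnt-RB and pnt-RE (limma adjusted p = 0.297). Over 27 shares of starts, isoforms and products, some of which add up to 100% with each other, 0 separated the groups, and the smallest p-value adjusted over these shares in the exact permutation test was 0.9. Leaving out single pools moved the difference between the groups by over 1.5 times for each of the 27. With 3 pools against 3 that test cannot give an unadjusted p-value below 0.1.

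**Figure D4:**
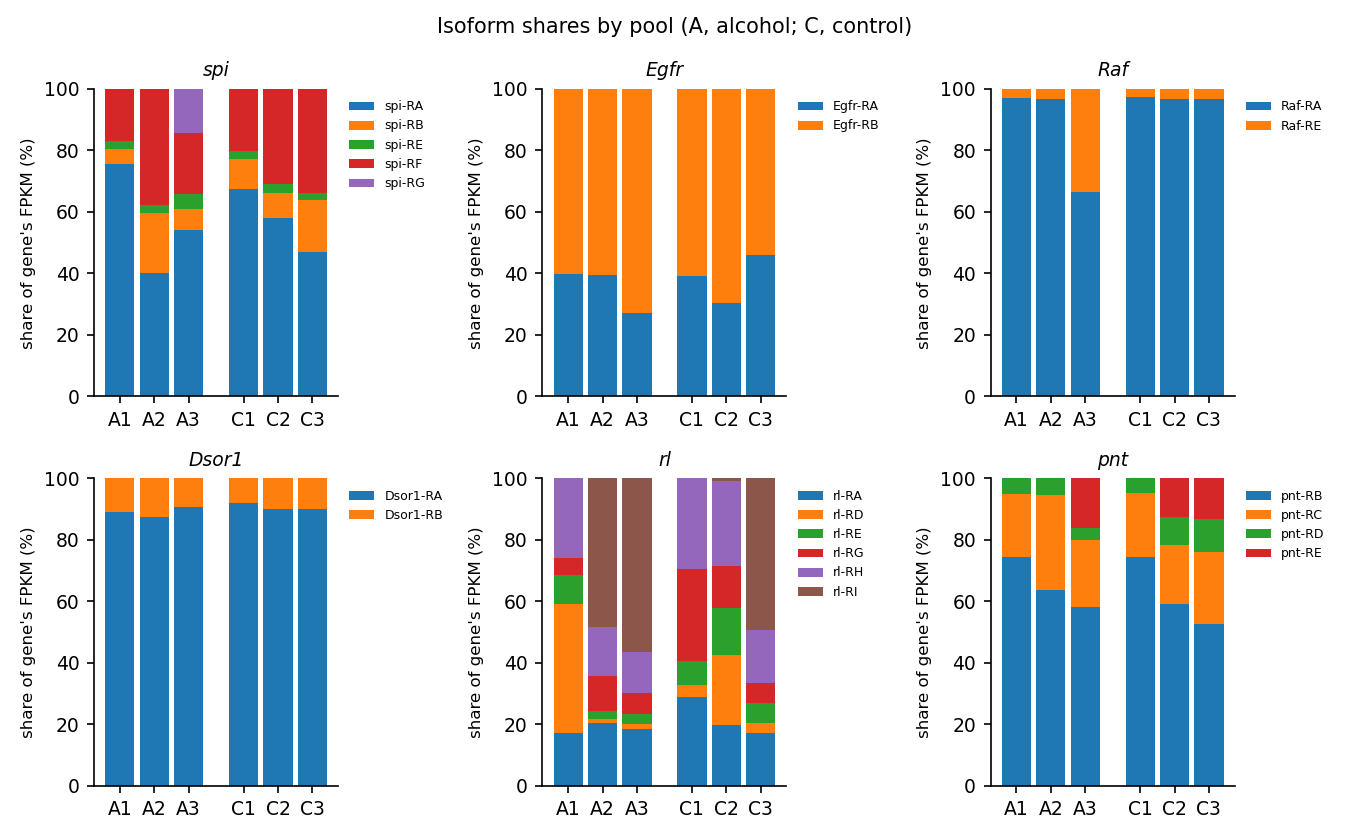
Share of each transcript in the summed FPKM of its gene, in percent, for the 6 genes with alternative starts or products that differ, in alcohol pools (A1 to A3, left) and control pools (C1 to C3, right). Dsor1 keeps 87.3% to 91.8% on Dsor1-RA in every pool. The division of rl changes between pools, with rl-RI at 48.4% to 56.6% in A2, A3 and C3 and at 0% to 0.867% in A1, C1 and C2. Raf departs from its usual division in alcohol pool 3 (33.5% on Raf-RE).

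A list of 38 further genes was taken from textbook knowledge of the pathway, all were listed in the matrix (Gap1 under its RefSeq name RasGAP1), and 32 passed the filter. Of these, 0 were called, with a median log2 fold change of -0.11 against -0.033 over all genes tested, and 30 of the 32 confidence intervals lay within a 2-fold change. The groups did not overlap for 2 of the 32, grk and kek1, against 6.21% of all genes tested. The exceptions were cic, an ERK-regulated repressor, with an interval of -1.14 to 0.37, and sev, the receptor of the R7 photoreceptor, with -1.02 to 0.87.

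Among 7 tested genes for ligands and their processing the median log2 fold change was 0.0019. In this list grk, the ligand known from the oocyte, had 5.52, 5.90 and 5.23 FPKM in alcohol pools, against 5.01, 2.88 and 4.67 FPKM in control pools, with a log2 fold change of 0.43 ± 0.215 (SE) that was not called (limma adjusted p = 0.999). The most abundant of this list was cni, for a cargo receptor, with 69.8 to 73.2 FPKM in alcohol pools and 68.9 to 81.5 FPKM in control pools. Among 8 tested adaptors, exchange factors and Ras inhibitors the median was -0.12, and drk, the adaptor between receptor and exchange factor, was the most abundant with 75.3 to 100.1 FPKM in alcohol pools and 72.6 to 105 FPKM in control pools. Among 7 scaffolds and phosphatases the median was -0.11, with 14-3-3epsilon highest at 881 to 1177 FPKM and 955 to 1254 FPKM.

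Feedback inhibitors of the pathway are themselves induced by it in many tissues, and 3 of 3 were tested, with a median of -0.068. In this list kek1, which encodes a transmembrane inhibitor of the receptor, had 27.3, 27.8 and 22.5 FPKM in alcohol pools, against 28.7, 32.5 and 28.8 FPKM in control pools. Its log2 fold change of -0.24 ± 0.151 (SE) was not called (limma adjusted p = 0.999). Spred was the most abundant, at 41.0 to 69.8 FPKM in alcohol pools and 37.8 to 52.9 FPKM in control pools. The 4 ERK-regulated transcription factors had a median of -0.17, and cic had the highest mean of them, with 36.8, 34.7 and 23.8 FPKM in alcohol pools against 30.3, 52.6 and 34.1 FPKM in control pools. Of 6 other receptor tyrosine kinases that use Ras, 3 were tested, with a median of -0.072, and Alk led with 16.0 to 28.1 FPKM in alcohol pools and 16.0 to 27.8 FPKM in control pools.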

How the data were processed

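Conditions and replicate numbers came from the sample labels. Per the labels and the study's methods, the authors trimmed reads with Trimmomatic 0.39 after FastQC 0.11.9, aligned them to dm6 with HISAT2 2.2.0, and quantified transcripts with StringTie 2.1.4. They deposited FPKM and read coverage per transcript and pool, not normalized any further. A table of the authors' own comparison (fold change, p-value and q-value per transcript) was not used. No read counts were analysed, so no counting error is given. The aligned bases of each pool came from the ratio of coverage to FPKM.

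Transcripts, and FPKM summed per gene, with a variance above 1 across pools entered a linear model of log2(FPKM + 1) in limma 3.58.1 (R 4.3.3) with treatment and Ballgown's library-size covariate, the sum of log2(FPKM + 1) below the 75th percentile of a pool, computed for each table. The covariate was 28531 to 29222 in alcohol pools and 29005 to 30450 in control pools for transcripts. For genes it was 22105 to 22613 and 22225 to 23842, with the highest value in control pool 1. It is thus partly tied to treatment. Fold changes on this scale understate changes of low transcripts. P-values were adjusted by Benjamini and Hochberg over all features. The fit was tested on simulated data. Exon structures, coding lengths and bases that no other transcript of a gene covers came from the Ensembl BDGP6 annotation, to which all 28 transcripts matched, and no sequence was used. Alternatives were other covariates, filters, pseudocounts, scalings and tests, a replicate block, and leaving out each pool. Shares and ranges were computed with Python 3.11.15, numpy 2.4.6, pandas 2.3.3 and scipy 1.17.1, and figures with matplotlib 3.10.9. All 10 genes with every transcript are named, and of the other pathway genes those called, those without overlap and the most abundant of each list. The members and lists were chosen with earlier results of these data known.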

Additional observations from a re-analysis of the deposited data

How the results depend on the processing

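The count of 0 called genes among the 9 and of 0 genes with changed transcript usage held under each alternative run. The 1 called transcript, pnt-RE, was lost (count 0) without the covariate, with the replicate block with or without the covariate, with the filter dropped or set to a mean of 1 FPKM, rescaling to TPM, quantile normalization, the ordinary F-test and a mean-variance trend, and the count ranged between 0 and 1 when each pool was left out. Over all transcripts tested, same-numbered pools did not deviate together (correlations -0.0096, -0.18 and -0.24). These values cover all transcripts at once and cannot exclude pairing or a shared batch for single genes. With the replicate block and the covariate, 674 transcripts and 146 genes were called over all features, against 564 and 112 without the block. With the block and no covariate the counts were 323 transcripts and 68 genes. The count of called transcripts was 348 with no covariate, 352 after quantile normalization, 285 with the ordinary F-test and 534 to 851 when each pool was left out, the highest without control pool 3, and the ordinary F-test called 48 genes. For spi-RA the log2 fold change of 0.43 turned to -0.20 with the block and the covariate and to -0.0066 after quantile normalization. For Egfr it ranged between -0.58 and 0.030 when each pool was left out. None of these values was called. The sign of the fitted change turned in 14 of 144 values for the member genes and in 60 of 367 for their transcripts, all but 3 of them for features whose change was smaller than its standard error. Rescaling to TPM turned it for 3 of 9 genes and 10 of 23 transcripts. All 27 shares of starts, isoforms and products gave differences that moved by over 1.5 times when single pools were left out. A difference near 0, such as 0.011 percentage points for pnt-RC and pnt-RE together, meets this rule easily. Over 210 alternatives for the shares, 0 moved the difference by more than 1 SD within groups. Leaving out 1 of 3 pools cannot move a difference that far, whatever the values. This count therefore does not show how the shares depend on single pools. The cause of these differences was not tested.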
